A study of Caenorhabditis elegans with 2 samples.

Results

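The heat-inducible genes described here were the Hsp70 genes F44E5.4, F44E5.5 and hsp-70, and the small heat shock protein genes hsp-16.1, hsp-16.2, hsp-16.11, hsp-16.41, hsp-16.48 and hsp-16.49 of Caenorhabditis elegans. They are 9 of 19973 protein-coding genes on the 6 nuclear chromosomes. The 9 genes were chosen by name with peak signals of these data known, among them that of the peak between F44E5.4 and F44E5.5, so their peak counts and signals are given as a description, with no test. The peaks came from chromatin immunoprecipitation followed by sequencing (ChIP-seq) with an anti-GFP antibody, on whole young adults of strain RW12320 at 62 hours, grown from larvae starved at the L1 stage after bleaching. In this strain CRISPR placed a TY1, EGFP and 3xFLAG tag on K11D2.4 at its own locus. There was 1 group of 2 biological replicates, each with peak lists of its own beside lists of the pooled replicates. The labels name no heat treatment, and no untagged, input or heat-shocked library was analysed here. Because whole animals were used, a peak in few cells and weaker occupancy in many cells cannot be told apart.

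Heat shock genes encode chaperones. Hsp70 proteins bind and release unfolded stretches of other proteins with the help of J-domain proteins and nucleotide exchange factors, and small heat shock proteins hold unfolding proteins until Hsp70 can act on them. In C. elegans the transcription factor HSF-1 switches on hsp-70, F44E5.4, F44E5.5 and the hsp-16 genes within minutes of heat, from promoters that carry heat shock elements, which are alternating GAA and TTC units. Transcripts of these genes are scarce in unstressed worms, whereas relatives such as hsp-1 are expressed without stress. All except hsp-70 lie in head-to-head pairs, in which a pair of genes starts from opposite ends of 1 shared upstream stretch.

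Shared upstream stretches were taken from a pair of Hsp70 genes with a strong peak between its starts and from hsp-16 pairs. In 1 of these hsp-16 pairs the stretch occurs more than once in the genome, and in the other it occurs once. Whether this difference bears on the presence of a peak was not tested. The stretches come from the RefSeq genome WBcel235 (ce11). Capitals mark GAANNTTC, the core of a heat shock element, where N is any base. This word is its own reverse complement, so 1 strand shows every match. The first line holds 300 bases of chrII:11759312-11759611 on the plus strand, from the start of F44E5.4 toward that of F44E5.5. The second holds chrV:9087807-9088106 on the plus strand, between hsp-16.1 and hsp-16.48. The third holds the 220 bases of chrV:1804958-1805177 on the plus strand, between hsp-16.2 and hsp-16.41.
F44E5.4 to F44E5.5: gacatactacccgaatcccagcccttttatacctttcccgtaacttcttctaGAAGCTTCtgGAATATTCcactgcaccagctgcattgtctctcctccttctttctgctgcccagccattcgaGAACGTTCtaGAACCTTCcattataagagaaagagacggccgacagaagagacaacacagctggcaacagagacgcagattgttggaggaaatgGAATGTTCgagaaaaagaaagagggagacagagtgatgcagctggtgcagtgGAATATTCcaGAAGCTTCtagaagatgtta
hsp-16.1 to hsp-16.48: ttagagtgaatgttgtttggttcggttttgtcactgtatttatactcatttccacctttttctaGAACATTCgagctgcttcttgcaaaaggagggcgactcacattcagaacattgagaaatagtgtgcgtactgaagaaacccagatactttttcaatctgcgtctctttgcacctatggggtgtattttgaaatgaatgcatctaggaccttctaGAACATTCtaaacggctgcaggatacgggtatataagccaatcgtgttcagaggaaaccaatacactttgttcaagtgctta
hsp-16.2 to hsp-16.41: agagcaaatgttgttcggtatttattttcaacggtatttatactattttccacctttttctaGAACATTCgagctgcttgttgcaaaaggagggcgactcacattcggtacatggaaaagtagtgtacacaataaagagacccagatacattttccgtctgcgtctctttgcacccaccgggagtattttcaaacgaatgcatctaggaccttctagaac
The first stretch showed 7 copies of GAANNTTC, in 3 close pairs and 1 single copy. The second showed 2 copies and the third 1. A further match begins just upstream of the hsp-16.41 start and is cut off by the end of the third stretch.

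The peak between F44E5.4 and F44E5.5 was among the highest in the data. In the conservative pooled list, in which the authors kept 1927 peaks by IDR, the irreproducible discovery rate, which scores how alike replicates rank a peak, it covered chrII:11759290-11759648 with its summit at position 11759449. Its signal, the authors' own peak height, was 768. This was 7.63 times the list's median of 101, and 14 of the 1927 peaks were higher, which placed it at rank 15. It was rank 10 among the 996 pooled peaks with a summit in a promoter, taken as 1000 bp upstream to 200 bp downstream of a transcript start. The peak spanned 359 bp against a median of 324 bp, and 1.40% of the pooled peaks were wider. The deposited score, which is at most 1000 in these lists, was 1000.

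The summit lay 138 bp upstream of F44E5.4 (chrII:11757107-11759311, minus strand) and 213 bp upstream of F44E5.5 (chrII:11759662-11761861, plus strand). F44E5.4 was the nearest start, but 1 summit served both genes and does not say at which of them the protein acts. The pooled summit base fell within a GAANNTTC word, whereas the summit of replicate 2, at position 11759482, fell in none. All 7 words of the stretch lay inside the pooled peak. Measured to base 4 of each word, they lay from 82 bp on the F44E5.4 side to 146 bp on the F44E5.5 side of the pooled summit.

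**Figure D1:**
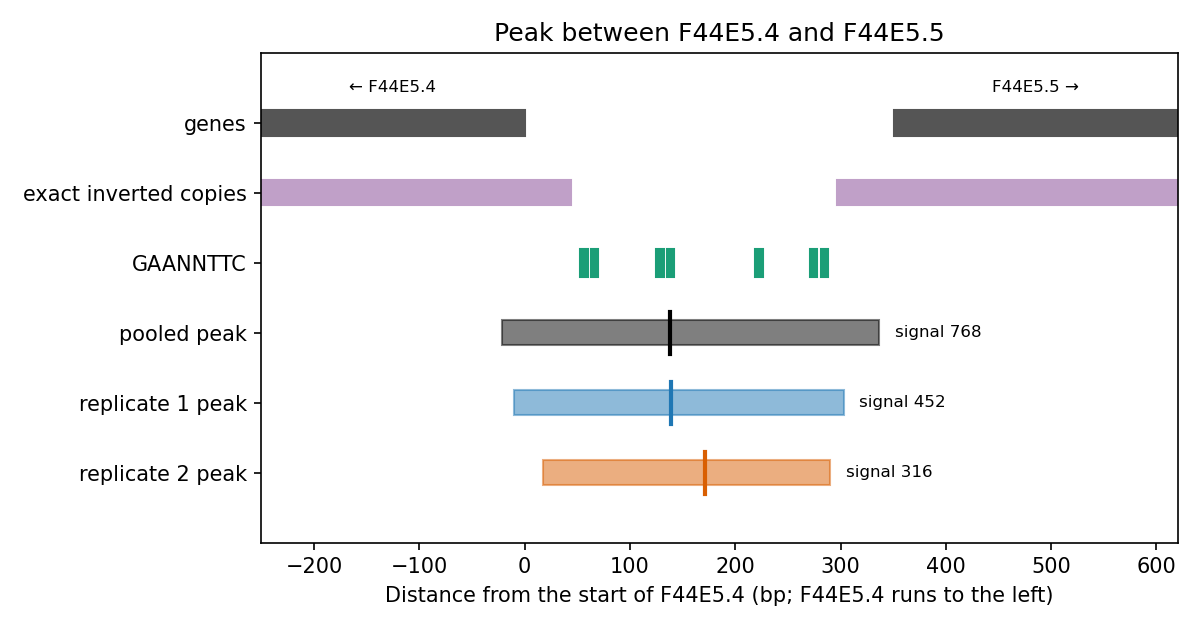
Map of the stretch between F44E5.4 and F44E5.5, with distance from the start of F44E5.4 in bp on the x axis and genes, exact inverted copies, GAANNTTC words and the peak in 3 lists in rows. Bars are peak spans and vertical lines are summits; all 3 peaks lie largely between the copies, and their signals are 768 in the pooled list, 452 in replicate 1 and 316 in replicate 2.

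Both replicates held this peak in their own thresholded lists. Replicate 1 gave a signal of 452 at rank 7 of 959 peaks, with the summit 139 bp from F44E5.4. Replicate 2 gave a signal of 316 at rank 20 of 1141 peaks, with the summit 171 bp from F44E5.4. The summits of the replicates were thus 32 bp apart, against a median of 26 bp over the 1904 pooled peaks found in both replicates' ranked lists, the long lists made before the threshold. Replicate 1 exceeded replicate 2 by 0.52 on the log2 scale, while the median log2 ratio over those 1904 peaks was 0.01 with an SD of 0.41, and 10.2% of them had a higher ratio. Among the 115 pooled peaks with a signal of at least 300 the median was 0.12, and 4 peaks had a higher ratio than this one. The peak was high in both replicates and higher in replicate 1. No source used here says whether signals of the replicates share 1 scale.

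**Figure D2:**
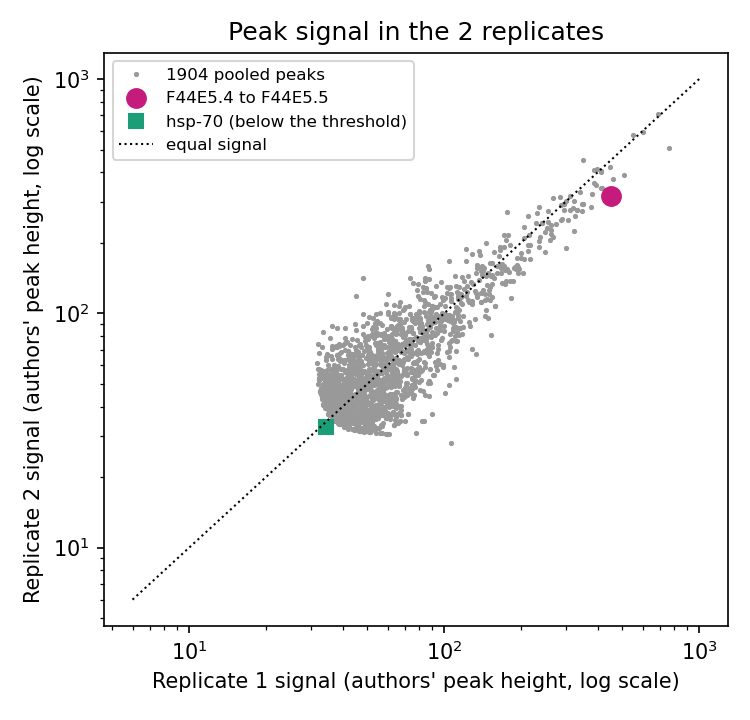
Signal in replicate 1 (x axis) against replicate 2 (y axis), both log scale, for the 1904 pooled peaks found in both replicates' ranked lists; the dotted line marks equal signal. The F44E5.4 to F44E5.5 peak (452 and 316) sits near the top and on the replicate 1 side of the line, and the hsp-70 peak (34.3 and 32.7), which was not in the pooled thresholded list, sits at the lower edge.

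Promoter peaks of neighbouring height had a range of replicate ratios. The 3 next above it lay at cdc-48.1, which encodes an AAA ATPase that extracts proteins for degradation, at mog-4, which encodes an RNA helicase of germline sex determination, and at the ribosomal protein gene rpl-35. Their pooled signals were 810.0, 798 and 797. The 3 next below lay at the F-box gene fbxb-58, at Y39B6A.43, and between Y55F3AR.2 and the chaperonin gene cct-8, with pooled signals of 699, 639 and 624. The summit assigned to fbxb-58 lay at -984 bp from its start, near the upstream edge of the promoter window. The log2 ratio of replicate 1 to replicate 2 ran from -0.37 at mog-4 to 0.41 at fbxb-58 over these 6 peaks, below the 0.52 at F44E5.4 and F44E5.5.

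Of the 9 heat-inducible genes, 2 had a promoter summit in the pooled list, namely F44E5.4 and F44E5.5 through their 1 shared peak, against 5.77% of all protein-coding genes. The same 2 genes were the ones found in the thresholded list of replicate 1, where the background was 3.39%, and in that of replicate 2, where it was 4.07%. The ranked lists, with 41734 and 42705 peaks, held summits at 4 of the 9 genes in replicate 1 and 5 of 9 in replicate 2. Their backgrounds were 45.0% and 46.2% of all genes, so the members' counts stood near the background there. No ranked peak at a member that was absent from the thresholded lists reached the lowest score of the pooled list, 830, and the highest such score was 741.

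**Figure D3:**
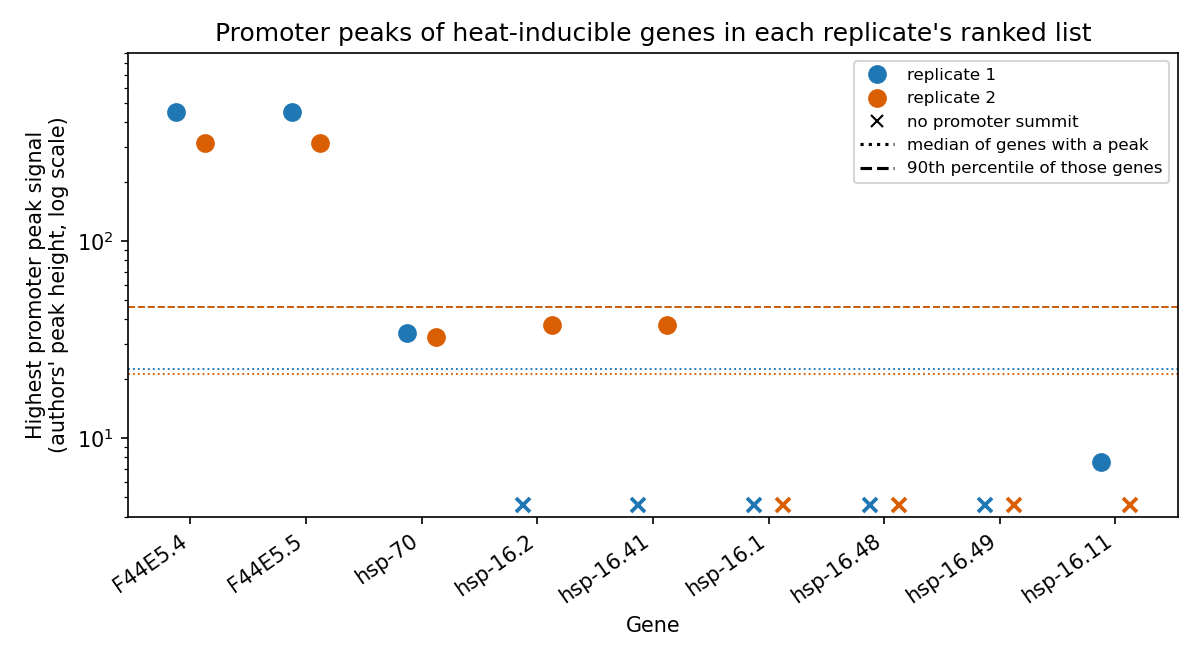
Highest promoter peak signal (log scale) of each of the 9 genes in the ranked list of replicate 1 and replicate 2; a cross at the bottom marks a gene with no promoter summit. Dotted and dashed lines give the median (22.5 and 21.2) and the 90th percentile (46.3 and 46.4) over genes with a peak; F44E5.4 and F44E5.5 lie far above these lines, and no other member passes the 90th percentile.

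The gene hsp-70 (C12C8.1, I:9320325-9322519, minus strand), the classic heat-induced Hsp70 gene of the worm, had a weak peak at its start in both replicates. Its signal was 34.3 in replicate 1, with the summit 73 bp upstream, and 32.7 in replicate 2, with the summit 88 bp upstream. These were ranks 3496 and 3652 of the ranked lists, and the list medians were 19.4 and 18.1. Among genes with a ranked promoter peak, 18.5% had a higher best signal in replicate 1 and 19.7% in replicate 2. In the pooled ranked lists the peak had a signal of 62.5, its summit lay 51 bp upstream, and its scores were 741 and 239, both under the threshold. The hsp-70 peak was therefore placed alike in both replicates but below the authors' threshold, and its signal was far under that of F44E5.4 and F44E5.5. Other ranked peaks within 5 kb of the hsp-70 start were of like height: the highest was 27.8 in replicate 1 and 35.2 in replicate 2, at 2258 and 2364 bp downstream.

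The pair hsp-16.2 (Y46H3A.3, chrV:1804334-1804957, minus strand) and hsp-16.41 (Y46H3A.2, chrV:1805178-1805875, plus strand) had promoter summits in replicate 2 alone. The higher peak had a signal of 37.7 at rank 2335, with its summit 256 bp upstream of the outermost of the 2 starts of hsp-16.2 and 35 bp downstream of hsp-16.41. A lower one had a signal of 19.4 at rank 18403 and a summit 192 bp downstream of the inner start of hsp-16.2 and 500 bp upstream of hsp-16.41. Of the genes with a promoter peak in replicate 2, 14.5% had a higher best signal. The pooled ranked lists held the higher peak with a signal of 55.8 and scores of 481 and 609. Replicate 1 had no summit in either promoter, and its nearest ranked summit lay 1141 bp downstream of the hsp-16.41 start with a signal of 24.0. The replicates thus differed on this pair.

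The other 4 hsp-16 genes lie in 1 cluster on the same chromosome, as the pairs hsp-16.1 (T27E4.8, chrV:9087293-9087782, minus strand) with hsp-16.48 (T27E4.3, chrV:9088131-9088617, plus strand) and hsp-16.49 (T27E4.9, chrV:9089280-9089766, minus strand) with hsp-16.11 (T27E4.2, chrV:9090077-9090604, plus strand). No list held a promoter summit at hsp-16.1, hsp-16.48 or hsp-16.49. The gene hsp-16.11 had 1 in replicate 1, with a signal of 7.61 at rank 41160 of 41734, and that summit lay 999 bp upstream, 1 bp inside the window. Just outside the window, a summit with a signal of 35.3 lay 1036 bp upstream of hsp-16.1 in replicate 1, and one with a signal of 26.2 lay 1140 bp upstream of hsp-16.11 in replicate 2. None of these summits lay in either stretch between the starts of a pair. All of them lay between the downstream ends of hsp-16.48 and hsp-16.49, and were nearer to the starts of those genes. The summits of 35.3 and 26.2 lay 687 and 806 bp downstream of the hsp-16.48 start. The summit of 7.61 lay 688 bp downstream of the hsp-16.49 start.

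The cluster is an exact inverted duplication. Its copies, chrV:9086861-9088741 and chrV:9089156-9091036, are 1881 bases long, identical when 1 is read on the other strand, and separated by 414 bases. The hsp-16.1 and hsp-16.11 genes were 100% identical where they align, as were hsp-16.48 and hsp-16.49. The hsp-16.1 gene was 89.0% identical to hsp-16.2, and hsp-16.48 was 91.1% identical to hsp-16.41. Of the windows of 50 bases in the 1201 bases of each promoter, the share that occurs once in the genome was 3.56% for hsp-16.1, 0% for hsp-16.48 and hsp-16.49, and 6.86% for hsp-16.11. It was 100% for hsp-16.2, hsp-16.41 and hsp-70. The median over 19972 promoters was 100%, and 2.48% of promoters were under 50%.

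Ranked summits of the cluster lay between the copies and at their outer ends. Between the copies were 2 summits in replicate 1, with signals of 35.3 and 7.61, and 1 in replicate 2, with a signal of 26.2. At the left outer end a summit lay 6 bp inside the copy in replicate 1 and 13 bp inside it in replicate 2, with signals of 31.9 and 43.6. At the right outer end a summit lay 36 bp outside the copy in replicate 1 and 14 bp outside it in replicate 2, with signals of 30.7 and 23.8. All these spans held windows that occur once, from 54.9% to 100% of each span. No ranked summit of either replicate lay deeper than 13 bp inside a copy.

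**Figure D4:**
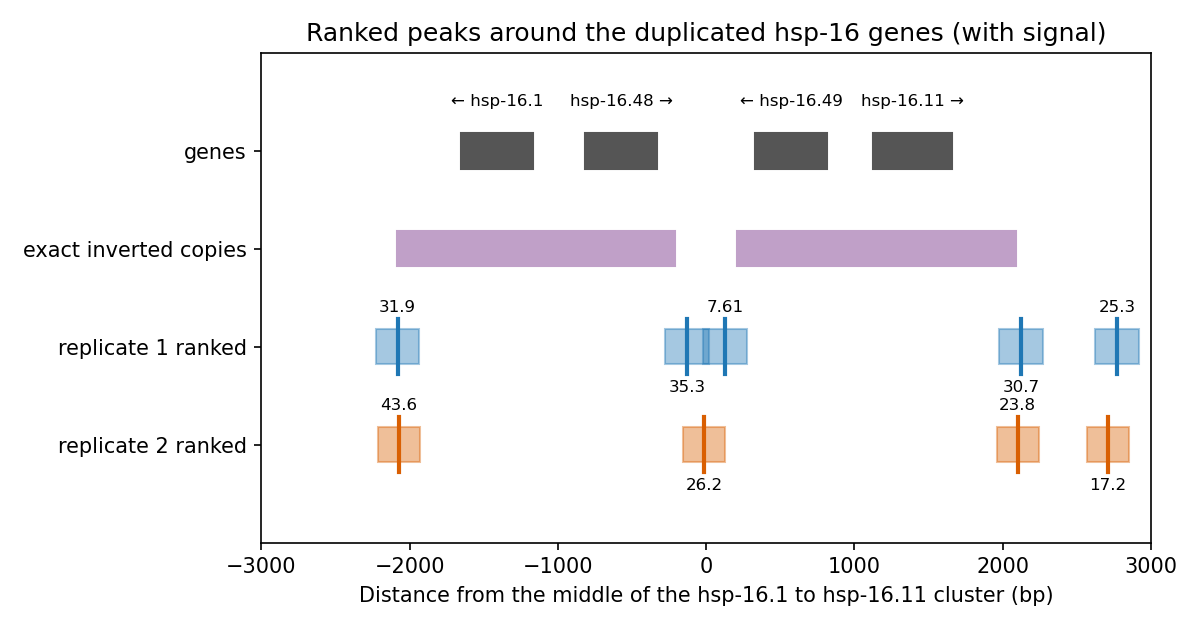
Map of the duplicated hsp-16 cluster, with distance from its middle in bp on the x axis and genes, the exact inverted copies of 1881 bases and the ranked peaks of each replicate in rows. Bars are peak spans, vertical lines are summits and numbers are signals (7.61 to 43.6); summits lie between the copies, at their outer ends or beyond them.

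F44E5.4 and F44E5.5 also lie in an exact inverted duplication. Its copies are 2209 bases long, at chrII:11757147-11759355 and chrII:11759608-11761816, and the genes were 99.9% identical to each other and 79.9% and 79.7% identical to hsp-70. Here the 252 bases between the copies fall between the starts of the genes. Of the 50-base windows between the starts 98.3% occur once, as do 94.5% of those under the pooled peak, whereas the share over each whole promoter was 26.1% and over the gene bodies 1.86% and 2.09%. In the hsp-16 cluster the stretches between the starts lie inside the copies, and 0% of their windows occur once. In the F44E5.4 and F44E5.5 duplication and the 1000 bp on each side of it, the other ranked summits were outside the copies: 4 in replicate 1, of at most 37.8, and 3 in replicate 2, of at most 27.1.

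Over all protein-coding genes, ranked promoter peaks were fewer where promoters held few such windows. Counting 1 promoter a gene, at its outermost start, 43.2% of the 15221 genes with all windows occurring once had a summit in replicate 1 and 44.6% in replicate 2. For the 251 genes with 10% to under 50% of windows occurring once, the band that holds F44E5.4 and F44E5.5, the share was 19.9% in both replicates. For the 245 genes under 10%, the band that holds the 4 clustered hsp-16 genes, it was 2.45% in both, or 6 genes. None of the 245 had a pooled peak, but pooled peaks were few in every band. The pooled share was 5.56% where all windows occur once and 4.23% from 90% to under 100%. It was 5.06% from 50% to under 90% and 2.79% from 10% to under 50%, so it did not fall at each step. No source used here says how the authors treated reads that match several places, and the part of repeated sequence in the missing summits was not tested. The hsp-70, hsp-16.2 and hsp-16.41 promoters had 100% of windows occurring once and no thresholded peak.

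**Figure D5:**
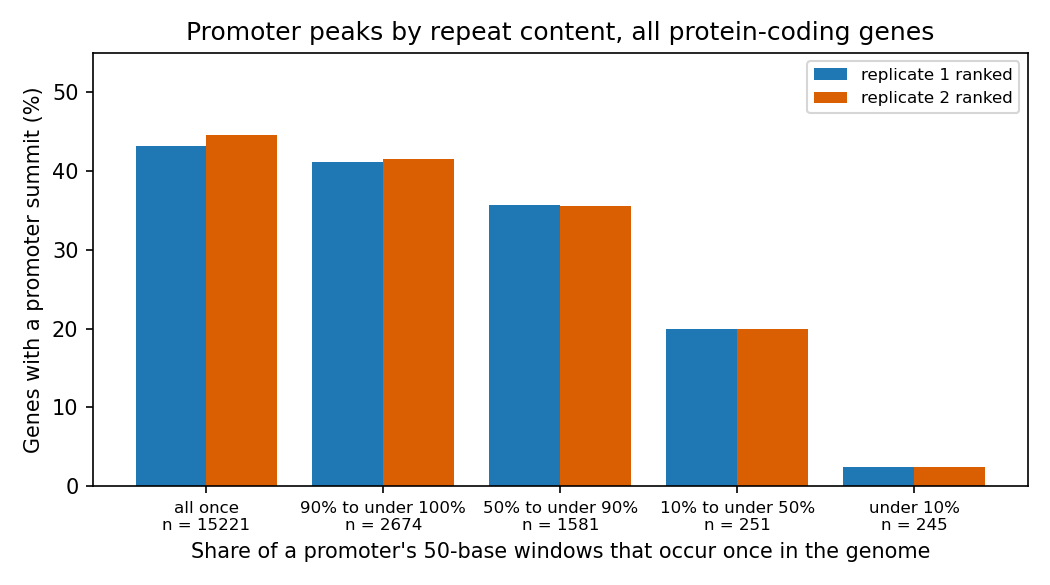
Share of protein-coding genes with a promoter summit (y axis, %) in the ranked list of each replicate, by the share of the promoter's 50-base windows that occur once in the genome (x axis, with the number of genes). The bars fall from 43.2% and 44.6% where all windows occur once to 2.45% where under 10% do.

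Heat shock element words were present in the promoters of all 9 genes, with or without a peak. GAANNTTC occurred 7 times in each of the F44E5.4 and F44E5.5 promoters, which share these copies, and 5 times at hsp-70. It occurred 3 times at each clustered hsp-16 gene and 2 times at hsp-16.2 and at hsp-16.41. The genes of each hsp-16 pair share their copies too, and the clustered pairs lie in exact copies of the same sequence. The 9 genes are therefore not separate cases. Of 19972 promoters of 1201 bases, 57.2% held the word at least once, 23.6% held 2 or more and 8.27% held 3 or more. For 5 or more the share was 1.04%, and for 7 or more it was 0.305%. GAANNTTC followed by any 2 bases and GAA, sought on both strands with overlapping matches counted, occurred 10 times in each of the F44E5.4 and F44E5.5 promoters. It occurred 1 time at hsp-70 and 2 times at each hsp-16 gene. Of all promoters, 7.69% held it at least once, 1.31% held 2 or more and 0.135% held 10 or more. Among the pooled peaks, 98 of 1927 (5.09%) had GAANNTTC in the 101 bases around the summit, and 14.6% had it in the 301 bases. Of promoter windows of 300 bases, a length close to the latter, 18.5% held GAANNTTC. The F44E5.4 to F44E5.5 peak had 7 copies in its 301 bases. A match is a string of letters and not a measured HSF-1 site.

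The 101 bases around the summit of the F44E5.4 to F44E5.5 peak had a GC content of 49.5%, against a median of 48.5% over the 1927 pooled peaks. Promoter windows of 300 bases ranged in GC content from 38.0% at hsp-70 to 44.7% at F44E5.4, above the median of 34.3% over all genes.

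Other genes of the heat shock pathway were taken from a list of 26, of which 10 had a promoter summit in the pooled list, against the 5.77% of all genes. All 10 were among the 12 other Hsp70 family genes and partners. The highest was dnj-13, which encodes a J-domain cochaperone, with a signal of 385 and a summit 207 bp upstream, followed by hsp-1, which encodes the constitutive cytosolic Hsp70, with 374 at 370 bp upstream. The Hsp90 gene hsp-90 had 291, hsp-3, an Hsp70 of the endoplasmic reticulum, had 274, and hsp-110, a nucleotide exchange factor gene, had 271. The signals of bag-1, dnj-19, unc-23, dnj-12 and hsp-6 ran from 244 down to 128. Each was less than the 768 between F44E5.4 and F44E5.5. The summits at hsp-90, hsp-110, dnj-19 and hsp-6 were nearer to the start of another gene, which leaves 6 of the 26 when a summit counts for its nearest start alone.

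The 2 remaining genes of that family, hsp-4, whose product is an Hsp70 of the endoplasmic reticulum, and stc-1, had ranked peaks alone. Their signals were 22.0 and 14.9 in replicate 1 and 16.7 and 14.3 in replicate 2. None of 10 other small heat shock protein genes had a pooled promoter summit, a count near the background of 5.77%, and 1 of them, sip-1, was in the thresholded list of replicate 2 with a signal of 57.4. None of the 4 regulators on the list had a thresholded summit. Among these, hsf-1 had a ranked peak in replicate 1 alone, with a signal of 26.3 at 52 bp upstream. The regulator hsb-1 had one in replicate 2 alone, with a signal of 19.3. The regulator ddl-1 had one in both, with signals of 13.8 in replicate 1 and 11.3 in replicate 2. Each ranked list thus held 2 of the 4 regulators, near the backgrounds of 45.0% and 46.2%.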

How the data were processed

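Peak lists of 2 biological replicates and of the pooled replicates were analysed as deposited, on ce11 per the labels. The deposited signal is the authors' peak height and the deposited score follows their IDR ranking; no source used here gives the aligner, peak caller, scaling, read length or depth. Signals were ranked within each list. The members and lists were chosen with earlier results of these data known, and the genes named beside them were the 26 pathway genes and those of the 3 promoter peaks next above and below the top member peak. Transcript starts came from Ensembl release 115 and symbols from RefSeq. Windows of 50 bases were counted on both strands of WBcel235. Identity came from global alignment in Biopython 1.88. Python 3.11.15, numpy 2.4.6, pandas 2.3.3 and matplotlib 3.10.9 were used. Peak counting and window counting were tested on simulated data. Alternatives were the second pooled list, each replicate alone, other promoter windows and overlaps, and other window lengths and words. In the pooled ranked lists 16 columns of per-replicate values were not used.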

Additional observations from a re-analysis of the deposited data

How the results depend on the processing

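The count of 2 members with a pooled promoter peak was the same in the second pooled list, among the top 50% of peaks by signal, with promoters of 500 bp upstream and 100 bp downstream or 2000 bp upstream and 200 bp downstream, with overlap by 1 base, and from 2 to 2 without each replicate. With the nearest start alone it was 1. The log2 ratio between replicates was 0.52 in the thresholded lists too. Those lists give this peak the same signals as the ranked lists, 452 and 316, so the ratio could not differ. As a percentile of rank in the ranked lists the difference was 0.0370 percentage points. The pathway count of 10 ran from 10 to 11 without each replicate and was 6 with the nearest start alone. The median share of promoter windows occurring once over the 9 members, 26.1% with 50 bases, was 23.4% with 36 bases and 31.9% with 100 bases. All 9 members held a heat shock element word with promoters of 250 bp upstream and 50 bp downstream and with the longer word. No paired analysis was possible because there was 1 group and no test. With 2 replicates, no control library and unknown depth, a missing peak does not show absent binding.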
